A study of Homo sapiens with 6 samples.

Results

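Fatty acid oxidation was examined in OVCAR5 cells, a long-established human ovarian cancer line, through 32 genes that act in the mitochondria or in the peroxisomes. The genes were chosen by name from a list of the pathway and matched by Ensembl identifier and symbol. All 32 were found among the 62656 genes of the tables, and all 32 had enough reads to be tested, so no gene of the list was lost to the filter on low counts. Cells received 100 nM NTX301, which the labels call a DNA hypomethylating agent (such drugs reduce cytosine methylation), or its solvent DMSO, for 3 days. Each group had 3 libraries of total RNA, and nothing in the labels ties them to separate cultures, so the p-values reflect only how far these libraries spread, possibly for technical reasons.

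Fatty acids enter the mitochondrial matrix as carnitine esters and are then shortened by rounds of dehydrogenation, hydration, a further dehydrogenation and thiolysis, and electrons from the first step pass through the electron transfer flavoprotein to the respiratory chain. Peroxisomes run a parallel pathway for very long and branched chains, in which an oxidase replaces the first dehydrogenase and hands its electrons to oxygen. Peroxisomal enzymes are made in the cytosol and imported by proteins called peroxins. Many genes of oxidation are known targets of the nuclear receptor PPAR alpha.

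With NTX301, 26 of the 32 genes fell, 4 rose and 2 were not past the threshold (quasi-likelihood test in edgeR, with p adjusted by Benjamini-Hochberg over 19029 tested genes and a threshold of 0.05). The share that fell was 81.2%, against 35.1% of all tested genes, and the share that rose was 12.5%, against 35.4%. Most changes were small: the median log2 fold change of the 32 genes was -0.33, beside 0.0 for all tested genes, and 6 genes fell by at least 0.58 on the log2 scale while 0 rose by as much (19.1% and 21.5% of all tested genes did so). These 6 were ACADS, ECI1, HSD17B4, PEX11A, ACADSB and HADH. In 24 genes all NTX301 libraries lay below all DMSO libraries (36.5% of all tested genes), in 4 they lay above (37.2%), and in SLC25A20, ACADL, ETFB and PEX6 the groups overlapped.

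The size of the fall depends on what the libraries are scaled to. The TMM factors used here set the typical gene to no change, and they differed between the groups (0.921 to 0.939 with DMSO, 1.07 to 1.08 with NTX301). Without a scaling factor the median of all tested genes moved up by 0.21 and that of the 32 genes was -0.12, and 13 fell (24.9% of all genes) and 5 rose (46.2%). All 13 were among the 26. Each fall given here is thus measured against the typical gene, and a fall smaller than about 0.21 on the log2 scale is a level near that of DMSO per library total. The genes whose sign turned without a factor and on log2(TPM + 1) were CPT1A, ACADM, DECR1, ETFB and PEX6.

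**Figure D1:**
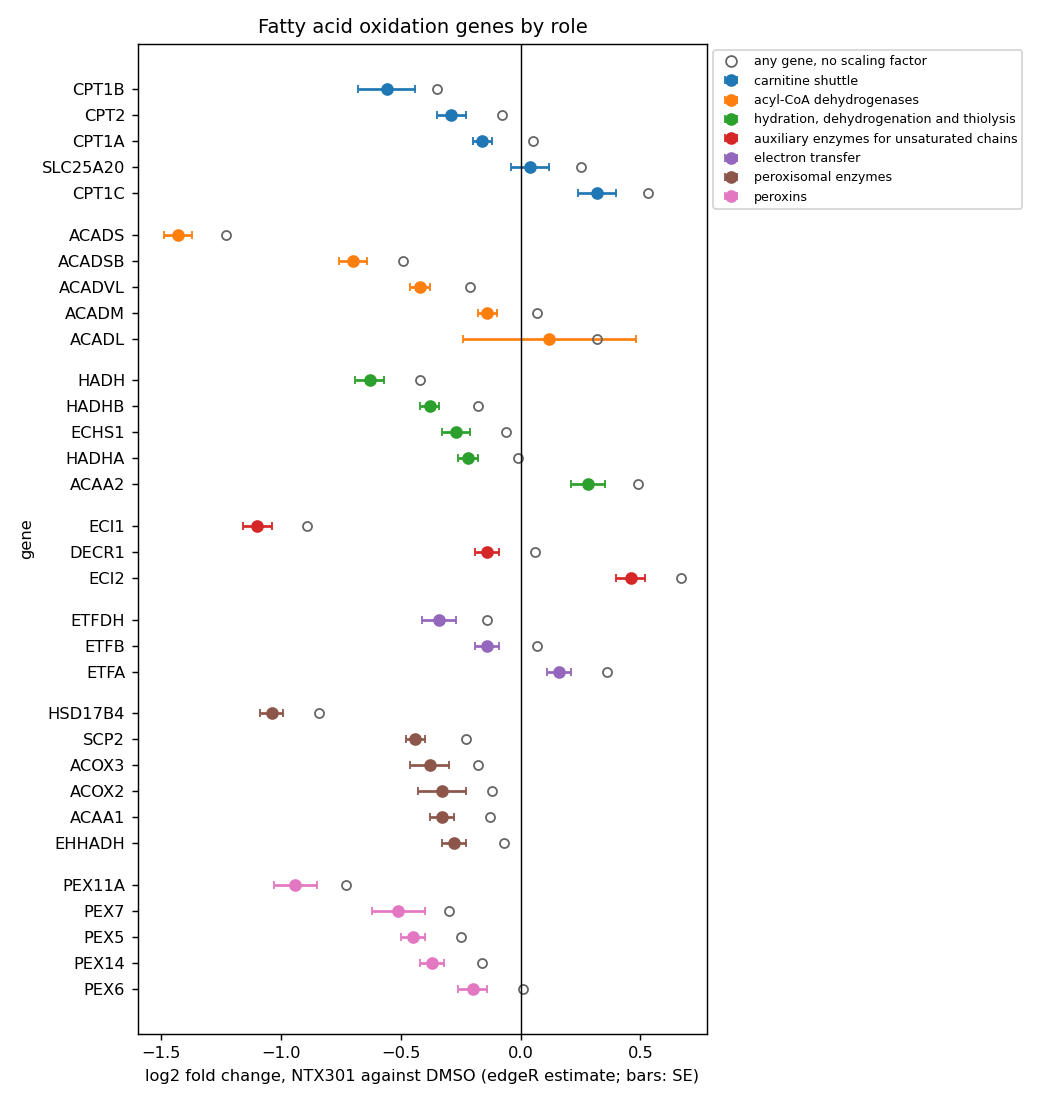
Log2 fold change of each of the 32 genes, NTX301 against DMSO, by role. Filled points with bars are edgeR estimates with SE from 3 libraries a group, and open circles are the estimates without a scaling factor. Filled points run from -1.43 for ACADS to 0.46 for ECI2, and each open circle lies to the right of its filled point.

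The libraries held 22131175 to 25743732 estimated counts. DMSO replicate 3 stood slightly apart from its group. Its counts differed from those of the other DMSO libraries by 6.21 and 6.57 in chi-square per degree of freedom, against 2.37 to 4.47 for other pairs within a group. Without it 26 of the 32 genes fell and 4 rose (33.6% and 33.9% of all tested genes). As a check of the cell type, 10 epithelial and ovarian markers were read in TPM (a level per transcript length, relative to all transcripts of a library). Their summed level was 4380 to 4560 TPM with DMSO and 2682 to 2758 TPM with NTX301. Of the 10 markers 5 fell (50%, against 35.1% of all tested genes) and 3 rose (30%, against 35.4%). EPCAM (51.4 to 92.0 TPM), KRT8 (1158 to 2203 TPM), KRT18 and KRT19 fell and remained high in every library, and MUC16, at 0.02 to 0.17 TPM, also fell. KRT7 rose by 1.26 ± 0.05 on the log2 scale, WFDC2 by 0.94 ± 0.10 and CDH1 by 0.31 ± 0.09, CDH1 from a low level (2.99 to 5.1 TPM over all libraries). PAX8 was at 5.66 to 9.69 TPM and MSLN at 3.39 to 4.48 TPM, neither past the threshold. Of 8 fibroblast markers 5 were tested, of which 4 rose (80%, against 35.4% of all tested genes) and LUM fell. The summed level of the 8 went from 5.2 to 5.89 TPM with DMSO to 21.1 to 21.9 TPM with NTX301. COL1A1 rose by 1.82 ± 0.05 (289 to 326 counts with DMSO and 1217 to 1236 with NTX301), PDGFRA by 2.99 ± 0.18, PDGFRB by 2.97 ± 0.19 and COL3A1 by 1.47 ± 0.40, while COL1A2, DCN and THY1 had 0 to 3 counts in every library. Of 8 immune and endothelial markers 4 of 5 tested rose (80%, against 35.4% of all tested genes). The list summed to 43.1 to 49.6 TPM with DMSO and 79.8 to 86.7 TPM with NTX301. CD68 (24.5 to 30.8 TPM with DMSO, 50.6 to 56.9 TPM with NTX301) and CD14 (15.8 to 17.3 and 27.1 to 27.3 TPM) made up most of that sum, and rose by 0.72 ± 0.08 and 0.49 ± 0.06. PTPRC and CD3E had 0 to 4 counts in every library. The part of these markers in the results was not tested.

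Sequence before the start of 4 genes is shown because the drug acts on cytosines that precede a guanine (CpG). The genes are 2 with large falls, ACADS and HSD17B4, and 2 that rose, ECI2 and ETFA. The stretches come from RefSeq promoters (GRCh38.p14), are limited to bases outside any annotated exon, run 5′ to 3′ on the gene's strand, and have each CpG in capitals.
ACADS, chr12:120725576-120725734, plus strand: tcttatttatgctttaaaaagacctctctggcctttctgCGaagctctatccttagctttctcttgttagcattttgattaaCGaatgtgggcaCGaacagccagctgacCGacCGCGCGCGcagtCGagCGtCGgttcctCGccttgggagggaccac
HSD17B4, chr5:119452247-119452442, plus strand: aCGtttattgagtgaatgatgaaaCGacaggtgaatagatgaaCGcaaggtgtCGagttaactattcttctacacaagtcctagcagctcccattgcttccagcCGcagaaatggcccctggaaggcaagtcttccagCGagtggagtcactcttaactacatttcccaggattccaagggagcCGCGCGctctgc
ECI2, chr6:4135598-4135825, minus strand: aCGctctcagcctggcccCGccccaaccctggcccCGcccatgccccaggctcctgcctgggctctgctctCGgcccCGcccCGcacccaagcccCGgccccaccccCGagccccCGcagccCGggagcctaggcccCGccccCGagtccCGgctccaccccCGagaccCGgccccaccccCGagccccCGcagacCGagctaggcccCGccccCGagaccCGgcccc
ETFA, chr15:76311473-76311719, minus strand: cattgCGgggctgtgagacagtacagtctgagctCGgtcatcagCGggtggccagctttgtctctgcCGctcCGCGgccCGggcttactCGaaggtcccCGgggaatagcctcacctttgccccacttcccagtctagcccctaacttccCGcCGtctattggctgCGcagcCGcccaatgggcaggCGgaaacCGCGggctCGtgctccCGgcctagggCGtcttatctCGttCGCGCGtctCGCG
These hold 12 CpG in 159 bases for ACADS, 9 in 196 for HSD17B4, 21 in 228 for ECI2 and 25 in 247 for ETFA. Because exon bases are left out, the stretches end at unlike distances from the start: 92 bases for ACADS, 55 for HSD17B4, 23 for ECI2 and 4 for ETFA. Their CpG counts therefore cannot be compared between the genes. Promoter windows (250 bases before to 50 after a start) were found for 25 of the 32 genes, 36 windows in all because some genes have several starts. Their median was 22 CpG, against 14 over all 35116 windows. Windows of genes that rose held 15 to 34 CpG (CPT1C with 15, 21 and 23, ACAA2 with 27, ECI2 with 28 and 34, ETFA with 29). Windows of genes with large falls held from 0 to 37 (HADH with 0 and 37, HSD17B4 with 19, ACADSB and PEX11A with 21, ECI1 with 27, ACADS with 30). The 0 of HADH is at a second start, inside the gene. These ranges overlap, they leave out the genes with smaller falls, and a relation of CpG number to direction was not tested. Methylation of these windows was not analysed here.

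The windows were also searched on both strands for the core AGGTCA of nuclear receptor sites, for this core repeated with 1 base between (the PPAR element), for the estrogen-related receptor element TCAAGGTCA, which contains the core, and for the NRF1 palindrome. None of these strings was in any of the 36 windows, and they were in 13.8%, 0.023%, 0.353% and 1.24% of all windows in this order. That says only that these letters are not in these short windows.

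The carnitine shuttle carries fatty acids into mitochondria. CPT1A, CPT1B and CPT1C encode forms of carnitine palmitoyltransferase 1, the step that limits the rate of oxidation: CPT1A is the liver form found in most tissues, CPT1B the muscle form and CPT1C the brain form, which has little activity in oxidation. Per transcript length, CPT1A was the most abundant of them in every library, with 32.6, 33.7 and 31.3 TPM with DMSO and 33.5, 32.4 and 35.2 TPM with NTX301. In normalised counts (CPM, counts relative to the TMM-scaled library total), CPT1A was at 92.6, 95.9 and 89.96 with DMSO and 82.9, 82.7 and 83.7 with NTX301. It fell by 0.16 ± 0.04 on the log2 scale (estimate ± SE, n = 3 each; edgeR adjusted p = 0.003), a fall not seen without a scaling factor (0.05, adjusted p = 0.3026; range of adjusted p over the alternatives 8.3e-04 to 0.3898).

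CPT1C went the other way, with 10.9, 11.2 and 10.6 CPM in DMSO and 13.8, 12.8 and 14.3 CPM in NTX301 libraries, with no overlap. It rose by 0.32 ± 0.08 (log2, edgeR adjusted p = 0.0031). CPT1B was at 5.57, 5.83 and 6.65 CPM with DMSO and at 3.79, 4.13 and 4.32 CPM with NTX301. It fell by 0.56 ± 0.12 (edgeR adjusted p = 0.0013), a call lost on log2(TPM + 1) (-0.26, adjusted p = 0.0718). CPT1B overlaps the readthrough gene CHKB-CPT1B on the same strand (log2 -1.19 ± 0.24), so the division of reads between them is uncertain.

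Of the summed TPM of the 3 CPT1 genes, CPT1A made up 76.8%, 76.2% and 73.96% with DMSO and 73.2%, 73.3% and 72.2% with NTX301. The difference of -2.74 percentage points had an exact permutation p of 0.1 (two-sided, 3 against 3 libraries), the smallest this design can give. CPT1C's share went from 15.2% ± 0.158 to 20.4% ± 0.774 and CPT1B's from 9.18% ± 1.51 to 6.71% ± 0.426 (mean ± SD, n = 3 each). The other steps of the shuttle are carried out by CPT2 and SLC25A20. CPT2, which returns the acyl group to coenzyme A inside the mitochondrion, fell by 0.29 ± 0.06 (edgeR adjusted p = 8.6e-04) but not without a scaling factor (-0.08, adjusted p = 0.2086). SLC25A20, the carnitine-acylcarnitine exchanger of the inner membrane, was at 13.5, 16.2 and 14.4 CPM with DMSO and 14.8, 15.4 and 15.2 CPM with NTX301, and its log2 fold change was 0.04 ± 0.08 (edgeR adjusted p = 0.6476). It rose without a scaling factor (0.25, adjusted p = 0.016).

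Acyl-CoA dehydrogenases carry out the first step, each on a range of chain lengths, and 4 of 5 fell. ACADS, the short-chain enzyme (ENSG00000122971.9, chromosome 12, 120725735 to 120740008, GRCh38), had the largest fall of the 32 genes. Its libraries were at 29.8, 30.6 and 30.7 CPM with DMSO and at 10.5, 12.1 and 11.1 CPM with NTX301, far apart compared with the spread within groups. The fall was 1.43 ± 0.06 on the log2 scale, a level 2.70-fold lower (edgeR adjusted p = 2.6e-09).

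ACADSB, the short and branched chain enzyme that also works on isoleucine (ENSG00000196177.13, chromosome 10, 123008979 to 123058311), was at 23.6, 23.8 and 21.4 CPM with DMSO and 14.4, 14.2 and 13.9 CPM with NTX301. It fell by 0.70 ± 0.06 (edgeR adjusted p = 1.3e-06). ACADVL, the very long chain enzyme and, per length, the most abundant of the 32 genes with DMSO (257 ± 6.32 TPM), fell by 0.42 ± 0.04 from 331 ± 2.50 to 248 ± 6.05 CPM (mean ± SD, n = 3 each). ACADM, the medium-chain enzyme, fell by 0.14 ± 0.04 (edgeR adjusted p = 0.0083), but was at 0.07 without a scaling factor (adjusted p = 0.1438). It overlaps RABGGTB (0.22 ± 0.04) on the same strand, so the division of reads between them is uncertain. Thus the falls ran from 0.14 for the medium-chain to 1.43 for the short-chain enzyme.

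ACADL, the long-chain enzyme, was close to silent, with 0.25 to 0.40 TPM in DMSO and 0.28 to 0.57 TPM in NTX301 libraries. Its log2 fold change of 0.12 ± 0.36 had an edgeR adjusted p of 0.7854, and the depth of these libraries does not resolve a small change in it.

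The later steps of the mitochondrial cycle are carried by the trifunctional protein for long chains and by single enzymes for short ones. HADHA and HADHB encode the alpha subunit (hydratase and hydroxyacyl-CoA dehydrogenase) and the beta subunit (thiolase) of the trifunctional protein. They lie head to head on chromosome 2 (HADHA 26190635 to 26244726, minus strand; HADHB 26243170 to 26290468, plus strand), with RefSeq starts 307 bases apart. The longest stretch between those starts with no annotated exon, shown because both genes start from either side of it, is short.
HADHA and HADHB, chr2:26244727-26244747, strand of HADHB: cCGgccccttagccctgcccc
It holds 1 CpG, in capitals. The full promoter windows, which include exon bases, held 22 CpG for HADHA and 21 for HADHB.

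HADHA was at 357, 361 and 349.8 CPM with DMSO and 306.5, 307 and 304 CPM with NTX301, and fell by 0.22 ± 0.04 (edgeR adjusted p = 1.6e-04). Without a scaling factor it was at -0.01 (adjusted p = 0.7547), so the call rests on the scaling. HADHB was at 189, 188 and 181 CPM with DMSO and 142, 148 and 138 CPM with NTX301, and fell by 0.38 ± 0.04 (edgeR adjusted p = 3.6e-06), also without a factor (-0.18, adjusted p = 0.001). The ratio of HADHA to HADHB in TPM, which no scaling of the libraries can move, was 1.31, 1.32 and 1.33 with DMSO and 1.489, 1.418 and 1.501 with NTX301. The groups did not overlap, and the exact permutation p was 0.1, the smallest possible with 3 against 3. The genes overlap on opposite strands and no strand setting of the counting is given in the sources used here, so some reads may not have been separated.

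HADH, the short-chain hydroxyacyl-CoA dehydrogenase (ENSG00000138796.18, chromosome 4, 107989714 to 108035175), was at 36.9, 35.4 and 32.2 CPM with DMSO and 21.97, 23.7 and 21.97 CPM with NTX301. It fell by 0.63 ± 0.06 (edgeR adjusted p = 2.3e-06). ECHS1, the short-chain enoyl-CoA hydratase, fell by 0.27 ± 0.06 (edgeR adjusted p = 0.0016), and not without a scaling factor (-0.06, adjusted p = 0.3528). ACAA2, the thiolase that ends the cycle, was the exception of this group: 45.5, 40.3 and 35.99 CPM with DMSO and 48.6, 49.1 and 50.4 CPM with NTX301. It rose by 0.28 ± 0.07 (edgeR adjusted p = 0.0037).

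Unsaturated fatty acids need auxiliary enzymes that move or reduce their double bonds, and the isomerases ECI1 and ECI2 moved in opposite directions. ECI1, the mitochondrial enoyl-CoA isomerase (ENSG00000167969.13, chromosome 16, 2239395 to 2252300), was at 89.5, 91.9 and 81.9 CPM with DMSO and 43.1, 41.2 and 38.6 CPM with NTX301. It fell by 1.10 ± 0.06, to a level 2.15-fold lower (edgeR adjusted p = 7.3e-09). ECI2, an isomerase found in peroxisomes as well as mitochondria (ENSG00000198721.13, chromosome 6, 4115689 to 4135597), was at 27.4, 27.1 and 24.3 CPM with DMSO and 37.3, 35.6 and 35.7 CPM with NTX301. It rose by 0.46 ± 0.06 (edgeR adjusted p = 1.6e-05), the largest rise of the 32 genes. Per length, ECI1 was at 139.5 ± 6.88 TPM and ECI2 at 33.2 ± 1.501 TPM with DMSO, against 73.5 ± 2.64 and 52.8 ± 1.55 TPM with NTX301, so the levels lay closer together. DECR1, the dienoyl-CoA reductase, fell by 0.14 ± 0.05 (edgeR adjusted p = 0.0145), did not reach the threshold with DESeq2 (adjusted p = 0.0723), and was at 0.06 without a scaling factor. It overlaps NBN (-0.42 ± 0.04) on the other strand.

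The electron transfer flavoprotein takes electrons from the acyl-CoA dehydrogenases and passes them to ETFDH, its membrane oxidoreductase. ETFA, the alpha subunit, was at 167, 163.5 and 149 CPM with DMSO and 182, 175 and 177 CPM with NTX301, and rose by 0.16 ± 0.05 (edgeR adjusted p = 0.0093). Without DMSO replicate 3, the lowest of its group here, the rise was 0.10 (adjusted p = 0.0358). ETFB, the beta subunit, was at 87.7, 86.2 and 77.2 CPM with DMSO and 76.2, 78.0 and 74.4 CPM with NTX301, which overlap. Its fall of 0.14 ± 0.05 (edgeR adjusted p = 0.0305) did not reach the threshold with DESeq2 (adjusted p = 0.0632), without DMSO replicate 1 (0.096) or 2 (0.0934), or without NTX301 replicate 1 (0.0624) or 3 (0.0787), with a range of 8.5e-04 to 0.2024 over the alternatives. The ratio of ETFA to ETFB in TPM was 1.22, 1.27 and 1.28 with DMSO and 1.606, 1.499 and 1.562 with NTX301, again with no overlap (exact permutation p = 0.1, the smallest possible). ETFDH fell by 0.34 ± 0.07 (edgeR adjusted p = 7.0e-04), and not without a scaling factor (-0.14, adjusted p = 0.1011). It overlaps C4orf46 (1.65 ± 0.08) and PPID (0.91 ± 0.05) on the other strand, both of which rose.

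**Figure D2:**
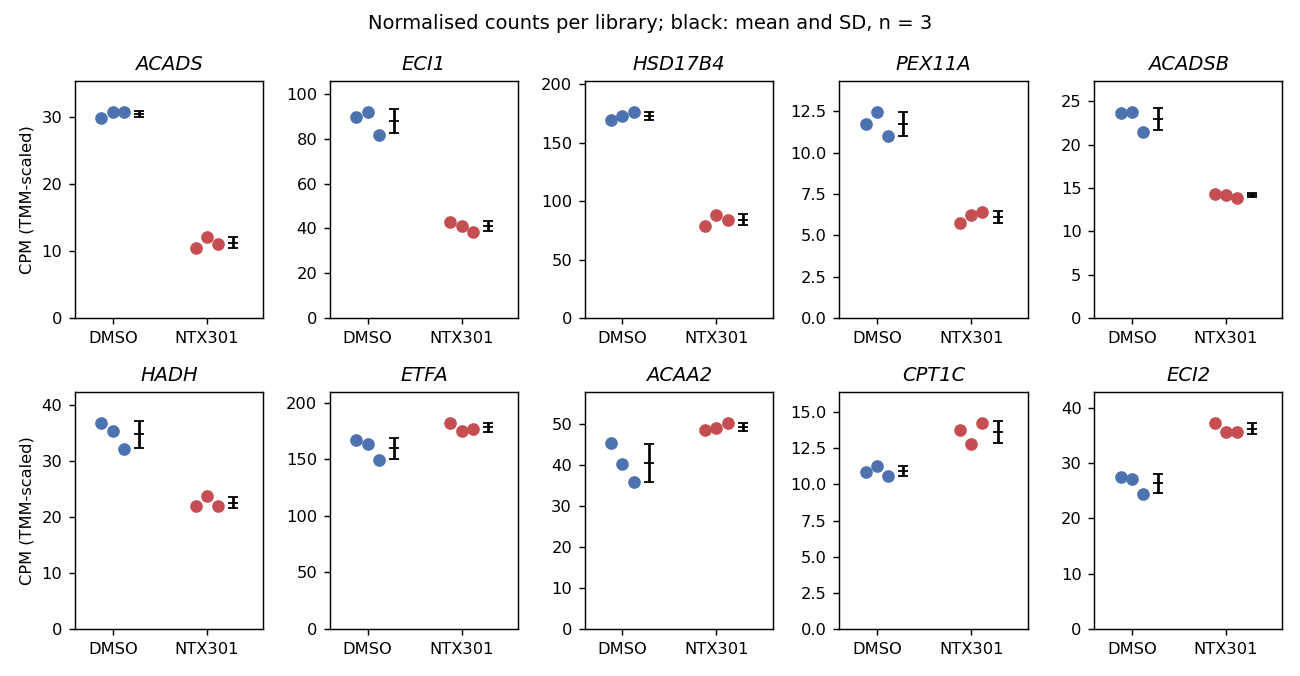
Normalised counts (CPM, TMM-scaled, axes from 0) in each library for the 6 genes that fell by at least 0.58 on the log2 scale and the 4 that rose. Points are libraries, and black marks are the mean and SD of 3. In all 10 genes the groups do not overlap, with ACADS the widest apart by fold (30.4 against 11.2 CPM on average).

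The 11 genes listed as peroxisomal, 6 enzymes and 5 peroxins, all fell, with a median of -0.38. Of 21 genes listed as mitochondrial 15 fell (71.4%), with a median of -0.22, and of all tested genes 35.1% fell. ECI2, which rose, was listed as mitochondrial although its enzyme is found in both organelles, and with it the peroxisomal genes would not all have fallen. The difference between these groups was not tested, and related genes did not all follow it. Of 16 other peroxisomal oxidation genes 5 rose (median -0.34), and 16 other mitochondrial ones had a median of -0.37. Without a scaling factor 6 of the 11 fell (24.9% of all tested genes did), and the medians were -0.18 and -0.01. HSD17B4, the bifunctional protein that carries out the hydratase and dehydrogenase steps for very long and branched chains (ENSG00000133835.18, chromosome 5, 119452443 to 119637199), was at 169, 173 and 176 CPM with DMSO and 79.2, 88.6 and 84.1 CPM with NTX301. It fell by 1.04 ± 0.05, to a level 2.06-fold lower (edgeR adjusted p = 2.0e-09). EHHADH, the other bifunctional enzyme, was at 40.7, 43.0 and 43.1 CPM with DMSO and 33.1, 37.1 and 34.5 CPM with NTX301, and fell by 0.28 ± 0.05 (edgeR adjusted p = 6.4e-04), but not without a scaling factor (-0.07, adjusted p = 0.267).

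SCP2, whose gene makes both a peroxisomal thiolase and a sterol carrier protein, was at 80.4, 79.9 and 81.7 CPM with DMSO and 60.4, 60.9 and 57.5 CPM with NTX301. It fell by 0.44 ± 0.04 (edgeR adjusted p = 1.3e-06), with and without a scaling factor. ACAA1, the other peroxisomal thiolase, fell by 0.33 ± 0.05 (edgeR adjusted p = 1.8e-04) and was just outside the threshold without a factor (-0.13, adjusted p = 0.0505).

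ACOX2 and ACOX3 are acyl-CoA oxidases for branched chains, ACOX2 also for bile acid precursors. They fell by 0.33 ± 0.10 and 0.38 ± 0.08 (edgeR adjusted p = 0.0126 and 7.4e-04). ACOX2 did not reach the threshold with DESeq2 (adjusted p = 0.0512) or without NTX301 replicate 3 (0.0535), and neither was without a scaling factor (adjusted p = 0.2934 for ACOX2 and 0.0547 for ACOX3; ranges over the alternatives 0.0051 to 0.3264 and 2.7e-04 to 0.0976).

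Peroxins showed the largest fall in PEX11A, which acts in the elongation and division of peroxisomes (ENSG00000166821.9, chromosome 15, 89677764 to 89690783). It was at 11.7, 12.5 and 11.03 CPM with DMSO and 5.72, 6.22 and 6.42 CPM with NTX301, and fell by 0.94 ± 0.09 (edgeR adjusted p = 2.3e-06). PEX5 and PEX7, the import receptors for the C-terminal and the N-terminal peroxisomal signals, fell by 0.45 ± 0.05 and 0.51 ± 0.11 (edgeR adjusted p = 1.1e-05 and 0.0011). PEX14, the docking protein at the membrane, fell by 0.37 ± 0.05 (edgeR adjusted p = 4.6e-05), while DFFA, which overlaps it on the other strand and has more counts, was at 0.58 ± 0.04. PEX6, an ATPase that recycles PEX5, was at 33.6, 38.2 and 38.8 CPM with DMSO and 30.9, 31.2 and 34.1 CPM with NTX301. Its fall of 0.20 ± 0.06 (edgeR adjusted p = 0.0161) was lost without DMSO replicate 2 (0.0567) or NTX301 replicate 1 (0.0683) or 2 (0.0655), and its log2 fold change was 0.01 without a scaling factor.

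Levels per transcript length spanned a wide range. With DMSO they ran from 0.33 ± 0.0755 TPM for ACADL to 257 ± 6.32 TPM for ACADVL (mean ± SD, n = 3), and ETFA, HADHA, ETFB, HADHB, ECHS1, ECI1, HSD17B4 and SCP2 also exceeded 100 TPM. With NTX301 the highest was ETFA, at 282, 268 and 281 TPM, and ECI1, HSD17B4 and SCP2 were at 73.5 ± 2.64, 62.7 ± 3.61 and 83.7 ± 1.65 TPM. Summed over the 21 mitochondrial genes the level was 1607 to 1688 TPM with DMSO and 1598 to 1641 TPM with NTX301, which overlap. Summed over the 11 peroxisomal genes it was 364 to 382 TPM with DMSO and 281 to 292 TPM with NTX301, which do not. On the TPM scale, then, the total of the mitochondrial genes differed by less than the spread between libraries.

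**Figure D3:**
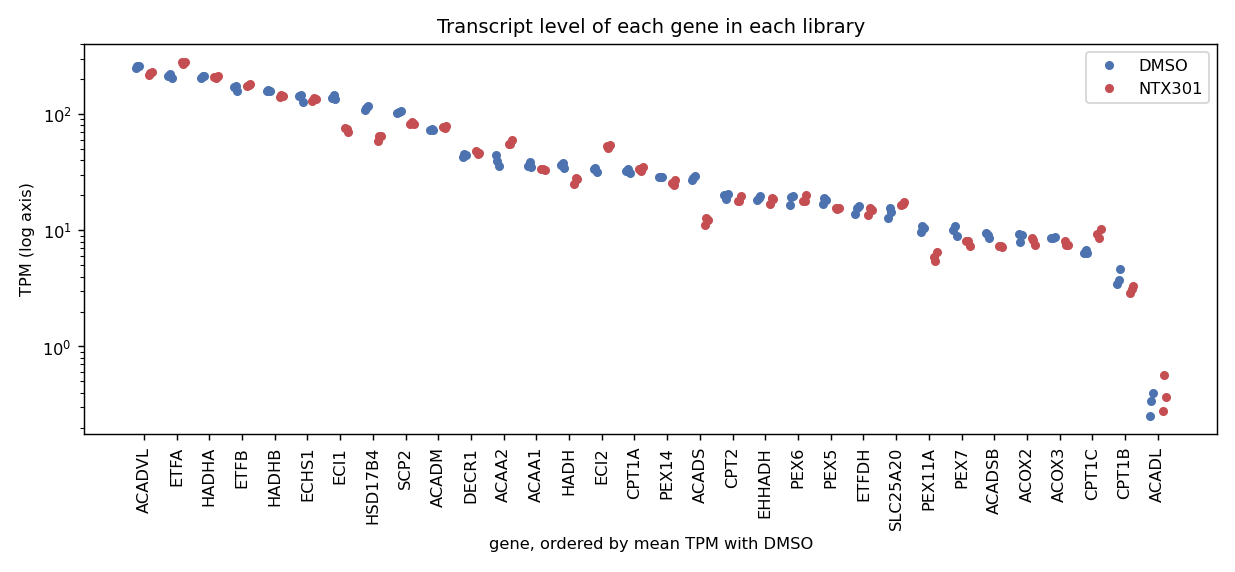
Level of each of the 32 genes in each library, in TPM on a log axis, ordered by the mean of the DMSO libraries. Points are libraries (3 DMSO left, 3 NTX301 right of each gene); the groups stand clearly apart for ECI1, HSD17B4, ECI2, ACADS and PEX11A, and ACADL lies below 1 TPM in every library.

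The gene tables also give a transcript length for each gene and library, weighted by the estimated share of each transcript, which moves when the mix of transcripts moves. Length differed by more than 1 base between libraries in 27 of the 32 genes. In 4 of these 27 the groups did not overlap, a smaller share than the 26.2% of the 11891 tested genes with such a difference. Lengths that separate the groups were thus not particular to these genes. SCP2 was at 1327, 1345 and 1372 bases with DMSO and 1445, 1401 and 1433 bases with NTX301. ACADSB was at 4023, 4377 and 4237 bases with DMSO and 3767, 3730 and 3855 bases with NTX301. Weighted transcripts were thus longer for SCP2 and shorter for ACADSB with NTX301. ETFDH was shorter with NTX301 (2310 to 2457 bases, against 2483 to 2586) and HSD17B4 longer by 16 bases on average. The groups of HSD17B4 barely separated, at 2591 to 2606 bases with DMSO and 2607 to 2634 bases with NTX301. ACADSB's log2 fold change was -0.70 in TMM-scaled counts, -0.49 in counts without a scaling factor and -0.29 on log2(TPM + 1), scales that differ in the factor, in the division by length and in the pseudocount. Which transcripts changed was not analysed here, and RSEM's division of reads among transcripts carries an error that these tables do not give.

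**Figure D4:**
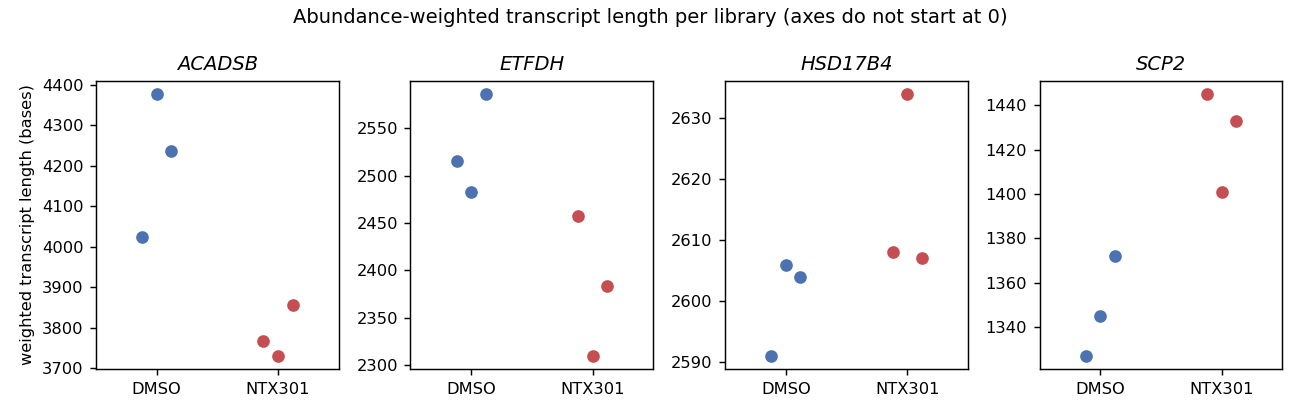
Abundance-weighted transcript length in bases, per library, for the 4 genes in which the groups do not overlap. Axes do not start at 0. ACADSB and ETFDH are shorter with NTX301, and HSD17B4 and SCP2 longer, HSD17B4 by 16 bases on average. The groups of HSD17B4 nearly touch (up to 2606 bases with DMSO, from 2607 with NTX301).

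Of 104 tested genes in 7 related lists, 46 fell (44.2%) and 30 rose (28.8%), against 35.1% and 35.4% of all tested genes. Without a scaling factor 34 fell and 42 rose, where 24.9% and 46.2% of all tested genes did so. Of 16 other genes of carnitine handling and mitochondrial oxidation, 9 fell (56.2%) and 5 rose (31.2%), with a median of -0.37. ACSM3, a medium-chain acyl-CoA synthetase, ACAD10, an acyl-CoA dehydrogenase family member, and MLYCD, the malonyl-CoA decarboxylase, fell by 0.98 ± 0.05, 0.71 ± 0.06 and 0.80 ± 0.13 on the log2 scale. ACAD11, another family member, rose by 0.96 ± 0.07, SLC25A32, the mitochondrial carrier linked to FAD supply, by 0.87 ± 0.04, and FLAD1, the FAD synthase, by 0.39 ± 0.06.

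Of 16 other peroxisomal oxidation genes, 9 fell (56.2%, against 35.1% of all tested genes) and 5 rose (31.2%, against 35.4%), with a median of -0.34. The largest fall was in CAT, the catalase that removes the hydrogen peroxide made by the oxidases: 130.4, 134.5 and 117.5 CPM with DMSO and 50.2, 50.1 and 44.8 CPM with NTX301 (log2 -1.40 ± 0.06, edgeR adjusted p = 1.9e-09). The reductases PECR and DECR2 fell by 1.10 ± 0.09 and 0.79 ± 0.05. The thioesterase ACOT4, the transporter ABCD2 and the peroxisomal carrier SLC25A17 rose by 1.05 ± 0.21, 0.87 ± 0.21 and 0.62 ± 0.08, ABCD2 not in DESeq2 (adjusted p = 0.0581). Of 12 other peroxins 6 fell (50%) and 1 rose (8.33%), with a median of -0.18, and 0.03 without a scaling factor. PEX11G, of the same family as PEX11A, fell by 1.29 ± 0.13, and PEX2 by 0.50 ± 0.09. PEX3, which is needed to build the peroxisomal membrane, rose by 0.90 ± 0.09.

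Of 9 genes of odd-chain and ketone body metabolism, 3 fell (33.3%, against 35.1% of all tested genes) and 1 rose (11.1%, against 35.4%). The median was -0.19, and 0.01 without a scaling factor. PCCA and PCCB, the subunits of propionyl-CoA carboxylase, fell by 0.78 ± 0.04 and 0.54 ± 0.06, BDH2 by 0.81 ± 0.08, and OXCT1, which activates ketone bodies, rose by 0.29 ± 0.05. Nuclear subunits of the respiratory chain, which receives the electrons of oxidation, went both ways: 8 of 25 rose and 8 fell, 32% each, near the shares of all tested genes (35.4% and 35.1%), with a median of -0.02. Without a scaling factor 14 rose and 2 fell, where 46.2% and 24.9% of all tested genes did so. The median was then 0.18, beside 0.21 for all tested genes. None of them changed by 0.58 or more. SDHB, NDUFS3 and NDUFA9 rose by 0.48 ± 0.07, 0.31 ± 0.06 and 0.31 ± 0.09, and ATP5F1A and NDUFA1 fell by 0.35 ± 0.05 and 0.28 ± 0.07, where NDUFA9 was not past the threshold without NTX301 replicate 3 (adjusted p = 0.0545) and NDUFA1 not without a scaling factor (0.3345).

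Of 15 tested PPAR receptors, partners and coregulators, 10 fell (66.7%) and 3 rose (20%), against 35.1% and 35.4% of all tested genes. Their median was -0.29. PPARA, the receptor that drives oxidation genes in liver, was at 21.5, 21.7 and 24.8 CPM with DMSO and 8.02, 8.66 and 10.3 CPM with NTX301 (log2 -1.33 ± 0.10, edgeR adjusted p = 1.8e-07). Its partner receptors RXRA and RXRB fell by 1.11 ± 0.04 and 0.82 ± 0.07. SIRT1, a deacetylase, TFAM, a factor of mitochondrial DNA, and the coactivator PPARGC1A rose by 0.88 ± 0.05, 0.59 ± 0.04 and 0.25 ± 0.08, PPARGC1A not in DESeq2 (adjusted p = 0.0774) nor without DMSO replicate 1 (0.0741) or NTX301 replicate 3 (0.0626). Of 15 PPAR targets outside oxidation only 11 could be tested, with a median of 0.52. Of these 7 rose (63.6%, against 35.4% of all tested genes) and 1 fell (9.09%, against 35.1%). CREB3L3, ANGPTL4 and FABP3 rose by 2.13 ± 0.23, 1.95 ± 0.13 and 1.34 ± 0.30, from low levels in CREB3L3 and FABP3 (0.585 and 0.549 CPM with DMSO). FABP4, a fatty acid binding protein, was the one that fell, from 54.0, 52.5 and 47.1 CPM to 7.22, 9.76 and 5.80 CPM (log2 -2.76 ± 0.12, edgeR adjusted p = 2.7e-09).

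**Figure D5:**
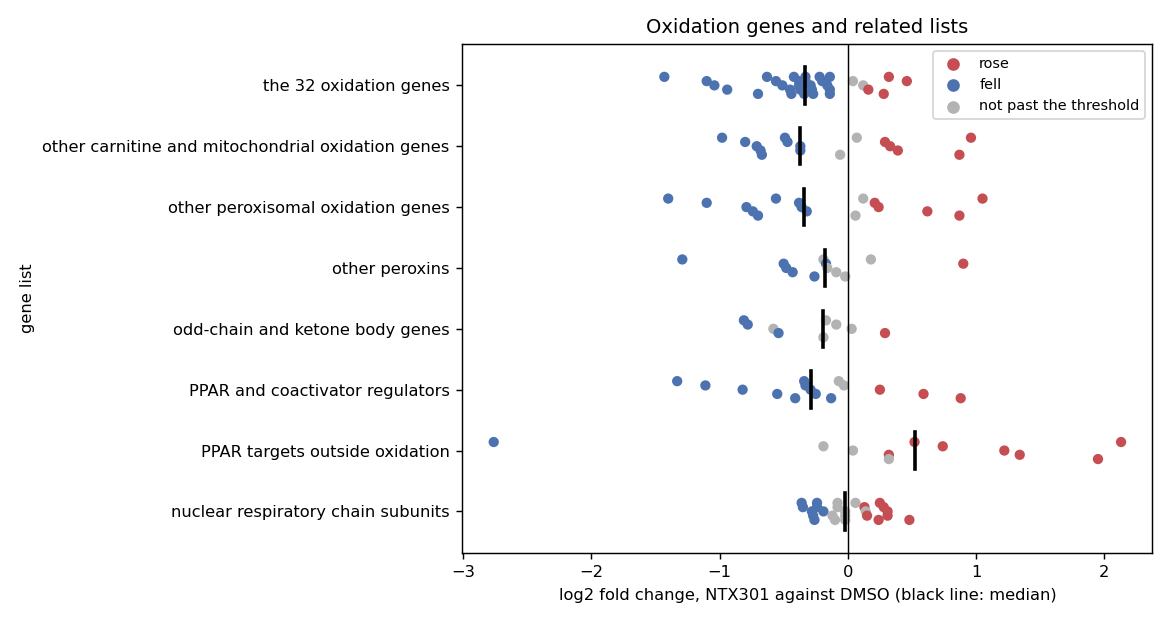
Log2 fold change of every tested gene in the list of 32 and in 7 related lists. Points are genes, coloured by call, and black lines are list medians. The median is lowest for other carnitine and mitochondrial oxidation genes (-0.37), near 0 for respiratory chain subunits (-0.02, or 0.18 without a scaling factor) and above 0 for PPAR targets outside oxidation (0.52).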

How the data were processed

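RNA sequencing of 6 OVCAR5 libraries, 3 with DMSO and 3 with 100 nM NTX301, was used as deposited. Per the file headers, each gene table has the columns RSEM writes. Expected counts, as deposited, estimate the reads of each gene and are not normalized. TPM values were computed by the authors within each library. The length column that they deposited is in bases. The sources used here do not give tool versions, strand setting, genome build or annotation. Positions come from GENCODE 29 (GRCh38) by gene identifier.

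Each table had 62703 entries. Entries of pseudoautosomal genes on chromosome Y were added to their X copies (62656 genes, of which 62639 matched a symbol). Expected counts were rounded and tested in edgeR 4.0.16 under R 4.3.3, after filterByExpr (19029 genes) and TMM, with treatment as the only term of glmQLFit and glmQLFTest. SE was derived from the fold change and its F statistic. The test was tried on simulated data. Library totals (22131175 to 25743732) limit precision for genes under 1 CPM. Alternatives used DESeq2 1.42.0, limma 3.58.1, other factors, filters and pseudocounts of 1 and 0.1 on TPM, a block, and leaving out each library. Of the 32 genes, 12 overlap a tested gene on the opposite strand and 4 on the same strand, where reads may be shared.

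The 32 genes and all lists were chosen with earlier results of these data known. Values per library are given for genes past the threshold with an absolute log2 fold change of 0.58 or more, for CPT1 forms and complex partners, and for some others chosen after their values were seen. Of each related list the 3 largest rises and 3 largest falls past the threshold are named, except for some that are not reported here. Protein sequences were not used here.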

Additional observations from a re-analysis of the deposited data

How the results depend on the processing

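The count of 26 genes that fell was 13 without a scaling factor, 13 on log2(TPM + 1) and 13 on log2(TPM + 0.1). Of all tested genes 24.9%, 22.7% and 22.6% fell on these scales in this order. When 1 library was left out the count ranged from 24 to 26 (32.3% to 33.6% of all tested genes). The 4 genes that rose were 4 in each fit that left out a library (32.7% to 33.9% of all tested genes). They were 5 on the unscaled scales (46.2%, 45.5% and 45.2%). Among related genes 46 fell and 30 rose (35.1% and 35.4% of all tested genes). The 46 became 30 on both TPM scales, and leaving out 1 library gave 43 to 51 that fell and 27 to 29 that rose. The 3 scales differ from the main one by their construction, since the median of all genes is 0.21, 0.17 and 0.22 on them. In the order no factor, log2(TPM + 1) and log2(TPM + 0.1), log2 fold changes turned sign in CPT1A (0.047, 0.051, 0.052), ACADM (0.069, 0.08, 0.081), DECR1 (0.063, 0.072, 0.073), ETFB (0.07, 0.08, 0.08) and PEX6 (0.0064, 0.0014, 0.0015), none past the threshold there. When 1 library was left out SLC25A20 ranged from -0.025 (without DMSO replicate 1) to 0.11, and ACADL from -0.22 (without NTX301 replicate 2) to 0.32, with -0.039 without DMSO replicate 1, where the cause was not tested. ACADS, ECI1, HSD17B4, PEX11A, ACADSB and HADH were past the threshold in every alternative run, with adjusted p up to 0.0075. The CPT1A share differed by -2.74 percentage points, the ratio HADHA to HADHB by 0.149 and the ratio ETFA to ETFB by 0.297. These differences kept their sign in all alternatives run. For each of them the groups did not overlap, so leaving out 1 library could not turn the sign. Leaving out a library is therefore no check of these signs. With the replicate block 26 of the 32 genes fell and 4 rose, and 50 related genes fell and 31 rose (35.5% and 35.9% of all tested genes). Same-numbered libraries deviated together by a correlation of only 0.0805, -0.0277 and 0.0431, and not every library correlated best with its own number. With 3 libraries a group, these values cannot tell whether the numbers pair the samples.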
